A study of Mus musculus with 6 samples.

Results

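The 41 genes described here encode the machinery that licenses replication origins, fires them and runs the replication fork in mouse cells. They were chosen by symbol from a list of subunits and regulators, and all 41 were found among the 22558 gene names of each of the 3 deposited tables. Messenger RNA had been sequenced in 6 cultures of mouse pluripotent cells, with 1 library for each culture. The first pair was embryonic stem cells (ESC) of strain 129Sv, one culture with the histone variant gene H2A.X knocked out (KO) by Cre and the other with the same gene in its Flox/Flox form. The other 4 were induced pluripotent stem cell (iPSC) lines on a 129Sv/C57 mixed background, described as H2A.X iPSC, of which one 4N- line and one 4N+ line came from peritoneal fibroblasts and one of each from tail tip fibroblasts. The labels write only 4N- and 4N+, which are read here, from outside knowledge, as failing or passing tetraploid complementation, in which a tetraploid embryo can develop only if the injected cells build the body. Each culture was at passage 25 and had been kept with LIF on feeder cells, from which they were separated on gelatin shortly before lysis. Whether a line descended from 1 clone, and how the iPSC had been reprogrammed, are not given in the labels.

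Origins of replication are licensed in G1, when the origin recognition complex and the factors CDC6 and CDT1 load the MCM2-7 helicase onto DNA as an inactive ring. In S phase the kinase pair CDC7-DBF4 and cyclin E-dependent kinase turn that ring into an active helicase by bringing in CDC45 and the GINS complex, and geminin blocks CDT1 so that an origin is not licensed again in the same cycle. The sliding clamp PCNA, the clamp loader RFC, primase and the replicative polymerases then copy the DNA from deoxynucleotides that ribonucleotide reductase and thymidylate synthase supply. Many of these genes are known targets of the E2F transcription factors, and pluripotent cells, which have a short G1 phase, express them strongly.

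The targeted gene itself, H2afx, had 6.18 FPKM in KO ESC, against 34.9 FPKM in the Flox/Flox ESC. The KO level was 17.7% of the Flox/Flox level, or about 434 fragments if the transcript had 2000 bases. The RNA was thus reduced and not absent in this library, and whether leftover feeder cells supplied part of it was not tested. Gene-level values do not place the remaining fragments inside or outside the deleted part. FPKM is a fragment count divided by transcript length and by library size. In the iPSC, H2afx stood at 75.2 FPKM in 4N- and 69.1 FPKM in 4N+ cells from peritoneal fibroblasts, and at 65.3 FPKM in 4N- and 70.9 FPKM in 4N+ cells from tail tip fibroblasts. The libraries held 11031 to 11852 genes at 1 FPKM or above. The effective depth, recovered from genes without introns, was 39058900 to 61180300 fragments, at which 1 FPKM on a transcript of 2000 bases stood for 70.15 to 109.9 fragments. Every one of the 41 genes reached 1 FPKM in each table and averaged 5 FPKM or more, the lowest value being 4.51 FPKM for Gins3 in the KO ESC, or about 316 fragments at that length. Counting error alone therefore gave the log2 ratios below an approximate 95% half-width of 0.027 to 0.19, which leaves out all variation between cultures.

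Promoter sequence is shown first because the genes of this machinery share a regulator in textbooks, and because it is a feature that the choice of genes did not use. RefSeq promoters (build GRCm38.p6, 250 bases before to 50 after the start) were matched for 32 of the 41 genes. Both strands were searched for the E2F motifs TTTCCCGC, TTTGGCGC and TTCCCGCC, of which the first and the last share 7 letters when they overlap. At least 1 of them was found in 15 of the 32 promoters (46.9%), against 894 of all 27025 promoters in the table (3.31%) and 400 of the 5492 promoters of genes that averaged 5 FPKM in the ESC (7.28%). Taken singly, TTTCCCGC was in 21.9% of the 32, 1.11% of all promoters and 2.60% of those of genes at that level, TTTGGCGC in 18.8%, 0.537% and 1.33%, and TTCCCGCC in 15.6%, 2.24% and 4.79%. The NF-Y motif CCAAT was in 59.4% of the 32, 37.9% of all promoters and 40.5% of those of such expressed genes. The CHR motif TTTGAA, which marks genes expressed late in the cycle, was in 15.6% of the 32, 18.1% of all promoters and 12.1% of those of genes that averaged 5 FPKM in the ESC. These shares describe letters in a window of this length and not binding.

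The promoters below belong to 2 subunits of the MCM2-7 helicase, to the gene with the lowest KO to Flox/Flox ratio in the list (Pola1) and to the only gene that was higher in the KO ESC before any correction for base composition or overall shift (Pold1). All 4 genes lie on the minus strand, the sequences read 5′ to 3′ in the direction of transcription, and capitals mark the E2F motifs on either strand.
Mcm3 promoter, GRCm38.p6 chr1:20820263-20820562, minus strand: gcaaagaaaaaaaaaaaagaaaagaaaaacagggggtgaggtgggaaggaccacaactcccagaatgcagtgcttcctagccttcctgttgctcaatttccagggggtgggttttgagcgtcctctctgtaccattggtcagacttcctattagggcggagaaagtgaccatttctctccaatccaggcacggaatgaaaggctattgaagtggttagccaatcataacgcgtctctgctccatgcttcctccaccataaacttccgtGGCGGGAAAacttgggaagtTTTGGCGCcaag
Mcm6 promoter, GRCm38.p6 chr1:128359656-128359955, minus strand: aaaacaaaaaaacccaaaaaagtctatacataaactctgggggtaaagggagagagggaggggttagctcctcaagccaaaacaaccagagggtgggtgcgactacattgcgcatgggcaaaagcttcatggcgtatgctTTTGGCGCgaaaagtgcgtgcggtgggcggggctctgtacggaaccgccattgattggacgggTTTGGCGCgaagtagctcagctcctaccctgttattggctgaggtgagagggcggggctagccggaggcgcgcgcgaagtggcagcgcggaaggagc
Pola1 promoter, GRCm38.p6 chrX:93632106-93632405, minus strand: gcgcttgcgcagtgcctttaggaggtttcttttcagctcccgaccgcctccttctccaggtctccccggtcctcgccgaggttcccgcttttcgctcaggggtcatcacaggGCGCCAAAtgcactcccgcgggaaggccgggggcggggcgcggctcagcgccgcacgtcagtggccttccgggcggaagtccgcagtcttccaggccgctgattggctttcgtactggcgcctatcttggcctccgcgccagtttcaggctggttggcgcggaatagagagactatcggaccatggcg
Pold1 promoter, GRCm38.p6 chr7:44548766-44549065, minus strand: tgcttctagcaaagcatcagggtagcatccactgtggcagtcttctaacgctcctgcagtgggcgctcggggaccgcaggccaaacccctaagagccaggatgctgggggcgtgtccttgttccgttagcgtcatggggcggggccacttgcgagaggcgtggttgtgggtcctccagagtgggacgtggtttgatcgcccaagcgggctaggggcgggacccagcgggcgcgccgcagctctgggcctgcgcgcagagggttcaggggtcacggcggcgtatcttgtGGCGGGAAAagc

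Mcm6 carried TTTGGCGC at 110 and 47 bases before its start. Mcm3 carried the overlapping pair on the opposite strand at base positions 19 and 20 from its start, and TTTGGCGC at position 39. Pola1 had 1 match, on the opposite strand at 138 bases before the start, while Pold1 had the overlapping pair at positions 39 and 40. The motif therefore stood in the promoters of genes at both ends of the range of ESC ratios, although the ratio of Pold1 was -0.03 once the GC trend of all genes was subtracted. Among the 32 genes, the median log2 ratio of KO over Flox/Flox ESC was -0.65 for the 15 with a match and -0.80 for the 17 without.

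The comparison of KO with Flox/Flox ESC asks which transcripts differ with deletion of H2A.X. Of the 41 genes, 40 were lower in the KO ESC, 24 of them by 1.5-fold or more and 4 of them by 2-fold or more; all ratios are of FPKM + 1, on a log2 scale. None was 1.5-fold higher. Their median log2 ratio was -0.66, with a range of -1.16 to 0.38. Over the 12086 genes measured in this table, 51.7% were lower, 15.9% were at least 1.5-fold lower, 17.8% at least 1.5-fold higher, 3.72% at least 2-fold lower and 7.49% at least 2-fold higher, and the median was -0.03. Since the listed genes are well expressed, the closer background is the 7692 genes that averaged 5 FPKM, of which 62.8% were lower and 21.7% at least 1.5-fold lower. With 1 library for each genotype there is no replicate check and no p-value for this comparison. In the authors' deposited table no listed gene was called significant, the lowest p-value being 0.0362 for Pola1, with a q-value of 0.48, and Ccne2 had no completed test.

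**Figure D1:**
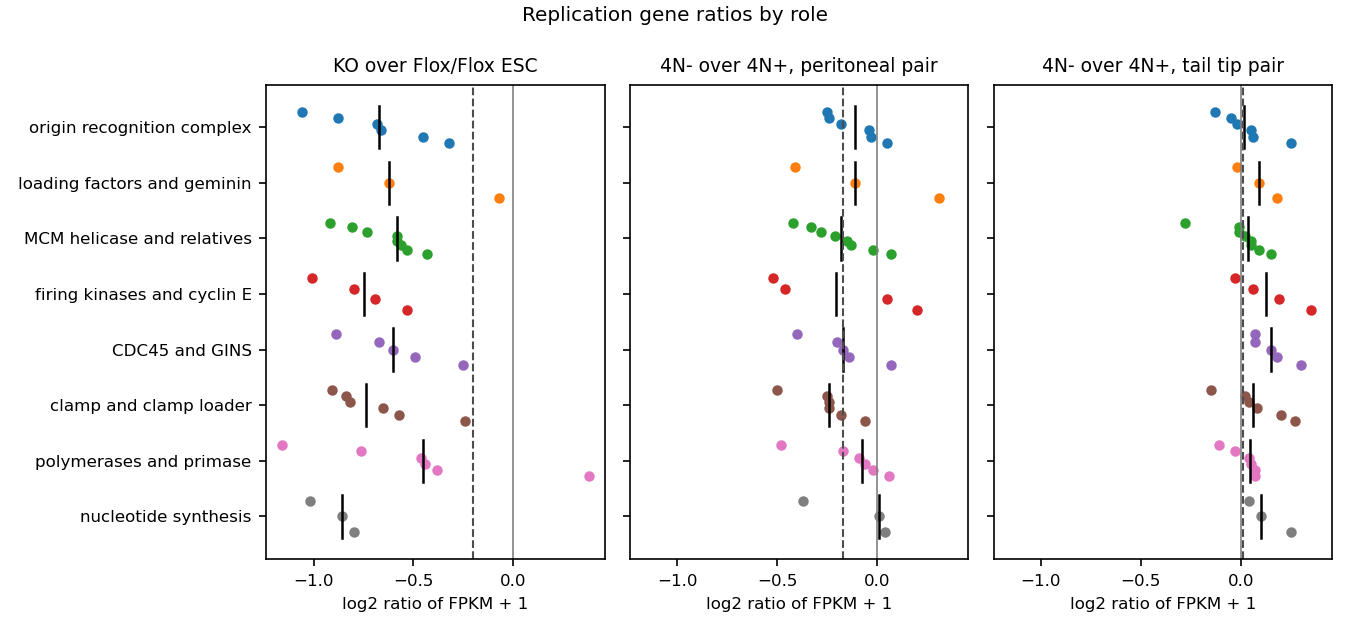
Log2 ratio of FPKM + 1 for each of the 41 genes (points), grouped by role, for KO over Flox/Flox ESC and for 4N- over 4N+ iPSC in each pair. Black ticks are role medians, the grey line is 0 and the dashed line is the median over genes with both libraries at 5 FPKM or above (-0.20 in the ESC). In the ESC all role medians lie left of the dashed line, between -0.86 and -0.45.

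The origin recognition complex, which marks origins and starts licensing, was lower in the KO ESC for 6 of 6 subunits, with a median log2 ratio of -0.67. Orc2 differed most, at 37.4 FPKM in the KO and 78.9 FPKM in the Flox/Flox cells (log2 ratio -1.06), so that the KO level was 47.4% of the other. Orc3 stood at 12.4 FPKM in the KO and 23.8 FPKM in the Flox/Flox cells (-0.88), and Orc1, the subunit whose level is regulated through the cycle, at 18.8 FPKM and 30.8 FPKM (-0.68). Orc5 was the last of the 4 subunits past 1.5-fold, at 33.9 FPKM in the KO and 54.1 FPKM in the Flox/Flox cells (-0.66). The other 2 subunits differed less, Orc6, the most abundant in the KO ESC, at 60.7 FPKM in the KO and 76.1 FPKM in the Flox/Flox cells (-0.32) and Orc4, the scarcest in the Flox/Flox ESC, at 14.9 FPKM and 20.7 FPKM (-0.45). Orc1, Orc2 and Orc4 share at least 300 exon bases with a gene on the opposite strand, 854 of them between Orc2 and Nif3l1. Strand use in the counting is not given in the sources used here, so those values are uncertain.

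Of the loading factors, Cdc6, whose product brings the helicase to the origin, stood at 8.30 FPKM in the KO and 13.3 FPKM in the Flox/Flox cells (-0.62). Cdt1, its partner in loading, was nearly level, at 21.2 FPKM in the KO and 22.3 FPKM in the Flox/Flox cells (-0.07). Gmnn, which encodes the CDT1 inhibitor geminin, was lower than either in ratio, at 50.8 FPKM in the KO and 94.6 FPKM in the Flox/Flox cells (-0.88). The KO ESC thus had 94.9% of the Flox/Flox level of Cdt1 and 53.7% of that of its inhibitor. Cdt1 is GC-rich, and with the GC trend of all genes subtracted, as described further on, the ratios were -0.39 for Cdt1 and -0.68 for Gmnn. Centring on the median of expressed genes put Cdt1 above 0 (0.13).

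All 6 subunits of the MCM2-7 helicase were lower in the KO ESC, with log2 ratios of -0.81 to -0.53. With the GC trend of all genes subtracted, their range was wider, from -0.68 for Mcm3 to -0.15 for Mcm4. Mcm6 was the most abundant, at 82.1 FPKM in the KO and 145 FPKM in the Flox/Flox cells (-0.81), followed by Mcm3 at 80.3 FPKM and 134 FPKM (-0.73). Mcm5 stood at 65.0 FPKM in the KO and 97.5 FPKM in the Flox/Flox cells (-0.58), Mcm4 at 62.2 FPKM and 90.4 FPKM (-0.53), and Mcm2 at 58.4 FPKM and 86.3 FPKM (-0.56). Mcm7, the least abundant, stood at 55.2 FPKM in the KO and 82.8 FPKM in the Flox/Flox cells (-0.58). The ring holds each of these subunits once, and the highest of the 6 exceeded the lowest 1.49-fold in the KO ESC and 1.75-fold in the Flox/Flox ESC. In the iPSC this spread was 2.14-fold in 4N- and 2.32-fold in 4N+ cells from peritoneal fibroblasts. From tail tip fibroblasts it was 2.46-fold in 4N- and 2.52-fold in 4N+ cells. The exons of Mcm7 share 321 bases with Ap4m1 on the opposite strand, so its value is uncertain. Mcm10, a fork factor that binds the active helicase, differed more, at 28.6 FPKM in the KO and 55.1 FPKM in the Flox/Flox cells (-0.92). With the GC trend subtracted, Mcm10 (-0.67) was level with Mcm2 (-0.67) and Mcm3 (-0.68). Mcm8, a relative that acts in recombination rather than in licensing, differed least of this group, at 15.3 FPKM in the KO and 21.0 FPKM in the Flox/Flox cells (-0.43).

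Among the firing factors, Dbf4, the activating subunit of the CDC7 kinase, stood at 68.5 FPKM in the KO and 139 FPKM in the Flox/Flox cells (-1.01). Cdc7, the kinase itself, differed by less, at 20.8 FPKM in the KO and 30.4 FPKM in the Flox/Flox cells (-0.53). Before the GC trend was subtracted, both E cyclins were past 1.5-fold. Ccne1 stood at 56.9 FPKM in the KO and 99.8 FPKM in the Flox/Flox cells (-0.80). The scarcer Ccne2 stood at 8.02 FPKM and 13.6 FPKM (-0.69). With that trend subtracted, the ratios were -0.76 for Ccne1 and -0.12 for Ccne2. The exons of Ccne2 share 336 bases with Ints8 on the opposite strand, so its value is uncertain.

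CDC45 and GINS complete the active helicase, and all 5 of their genes were lower in the KO ESC. Gins1 stood at 14.9 FPKM in the KO and 28.4 FPKM in the Flox/Flox cells (-0.89), Gins3 at 4.51 FPKM and 7.75 FPKM (-0.67) and Gins4 at 26.9 FPKM and 41.1 FPKM (-0.60). Cdc45 was short of 1.5-fold, at 24.2 FPKM in the KO and 34.4 FPKM in the Flox/Flox cells (-0.49). Gins2, at 22.1 FPKM in the KO and 26.5 FPKM in the Flox/Flox cells (-0.25), was nearest to level, but its exons share 2758 bases with Gse1 on the other strand.

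The sliding clamp Pcna stood at 57.9 FPKM in the KO and 104 FPKM in the Flox/Flox cells (-0.84). Of its loader, Rfc5 stood at 31.8 FPKM in the KO and 60.8 FPKM in the Flox/Flox cells (-0.91), Rfc1, the large subunit, at 33.0 FPKM and 58.9 FPKM (-0.82), and Rfc3 at 17.8 FPKM and 28.5 FPKM (-0.65). Rfc4 and Rfc2 were lower by less than 1.5-fold, Rfc4 at 40.5 FPKM in the KO and 60.6 FPKM in the Flox/Flox cells (-0.57) and Rfc2 at 44.8 FPKM and 53.2 FPKM (-0.24). The exons of Rfc2 share 952 bases with Lat2 on the opposite strand, so its value is uncertain. The transcripts of Pcna, Rfc5, Cdc6, Mcm7 and Rrm2 have processed pseudogenes at least 95% identical to them over 300 bases or more, so how reads were divided among copies is uncertain for these genes.

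Before any correction for GC content, the polymerases and primase had the widest range of ratios of the groups. With the GC trend of all genes subtracted, they ran from -0.67 to -0.03, and the origin recognition complex from -0.64 to 0.11. Pola1, the catalytic subunit of the priming polymerase (mm9 chrX:90550105-90877494), had the lowest ratio of the list, at 15.0 FPKM in the KO and 34.6 FPKM in the Flox/Flox cells (-1.16), or 43.3% of the Flox/Flox level. Its accessory subunit Pola2 stood at 31.9 FPKM in the KO and 43.7 FPKM in the Flox/Flox cells (-0.44). Of primase, which shares that complex, Prim1 stood at 39.8 FPKM in the KO and 68.2 FPKM in the Flox/Flox cells (-0.76) and Prim2 at 20.2 FPKM and 26.5 FPKM (-0.38). The 4 genes of 1 complex thus spanned ratios of -1.16 to -0.38. With the GC trend subtracted, Pola1 stood at -0.67, Pola2 at -0.52, Prim1 at -0.35 and Prim2 at -0.08. Pold1, the catalytic subunit of the lagging strand polymerase (mm9 chr7:51788114-51804185), was the only gene of the 41 higher in the KO ESC, at 16.8 FPKM, against 12.7 FPKM in the Flox/Flox ESC (0.38). That direction did not hold with the GC trend subtracted (-0.03), and after centring Cdt1 was above 0 as well. Pole, its leading strand counterpart, stood at 23.1 FPKM in the KO and 32.1 FPKM in the Flox/Flox cells (-0.46).

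The enzymes of deoxynucleotide supply were all past 1.5-fold before the GC trend was subtracted. Rrm2, the regulated subunit of ribonucleotide reductase, stood at 69.5 FPKM in the KO and 127 FPKM in the Flox/Flox cells (-0.86), and Rrm1, the large subunit, at 39.3 FPKM and 69.1 FPKM (-0.80). Tyms, which makes thymidylate, stood at 7.10 FPKM in the KO and 15.4 FPKM in the Flox/Flox cells (-1.02). The KO level was 46.1% of the Flox/Flox level, although the Tyms transcript holds a repeat found elsewhere in the genome. With the GC trend subtracted, Tyms (-0.72) alone was past 1.5-fold, while Rrm2 stood at -0.50 and Rrm1 at -0.39. In all, 12 of the 41 genes had a value made uncertain by an overlapping gene, a copy or a repeat, and the median without them was -0.65.

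Part of the difference between the ESC libraries moved with base composition. Over 6747 genes that averaged 5 FPKM and had an annotated transcript, the log2 ratio of KO over Flox/Flox had a Spearman correlation of 0.484 with transcript GC content, given as a description of this pair of libraries. The listed genes have a median GC content of 47.8% (36.3% to 60.7%), against 49.5% for all these genes. Genes of 46% to 50% GC had a median of -0.298 over all genes and -0.812 for the 15 listed genes in that range, and genes of 42% to 46% GC had -0.424 and -0.762 for 11 listed genes. At 50% to 54% GC the medians were -0.0938 over all genes and -0.577 for 8 listed genes. The few GC-rich members, 2 genes above 58%, had a median of 0.154, against 0.36 for all genes there.

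With the GC trend of all genes subtracted, 39 of the 41 genes were still below 0, with a median of -0.40, and 11 were at least 1.5-fold lower, against 50.9% of genes below 0 and 8.54% at least 1.5-fold lower in the background treated in the same way. The exceptions were Orc4 (0.11) and Orc6 (0.06). Pold1 moved to -0.03 and Pola1 to -0.67, while Ccne1 (-0.76), Tyms (-0.72), Rfc5 (-0.69), Mcm3 and Gmnn (both -0.68) had the lowest values. The MCM group, at a median of -0.54, was then lower than the origin recognition complex, at -0.28, the reverse of their order before the subtraction. Cdt1, with 1 of the GC-rich transcripts, stood at -0.39 on this scale.

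**Figure D2:**
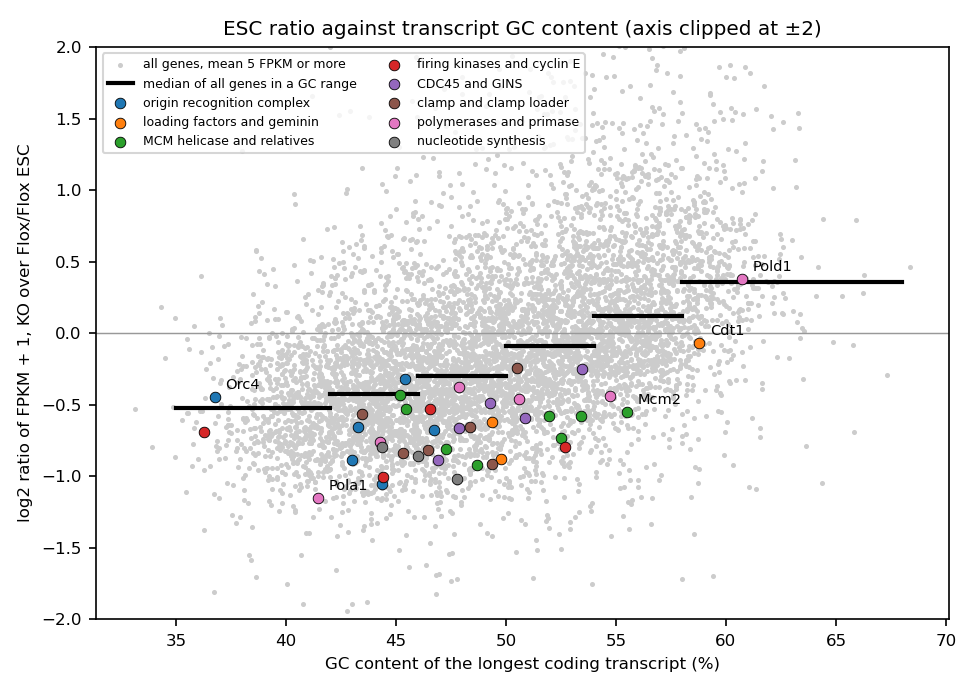
Log2 ratio of FPKM + 1, KO over Flox/Flox ESC, against GC content of the longest coding transcript in GENCODE (percent) for all genes that averaged 5 FPKM (grey) and the 41 replication genes (coloured by role). Black bars are medians of all genes in a GC range, which climb from left to right, and most coloured points lie below the bar of their range.

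Markers of cell type also differed between the ESC libraries. Of 8 pluripotency markers, 7 were lower in the KO ESC, while Nanog stood at 111 FPKM in either culture (-0.00, or 0.37 with the GC trend subtracted). The 8 pluripotency markers summed to 450 FPKM in the KO ESC, against 708 FPKM in the Flox/Flox ESC. Of these markers 4 were at least 1.5-fold lower, against 15.9% of all measured genes and 21.7% of genes that averaged 5 FPKM. Their median log2 ratio was -0.59, or -0.72 with the GC trend subtracted. Of 8 trophoblast markers, 6 were measured and 5 were at least 2-fold higher, against 7.49% of all measured genes. The 8 summed to 891 FPKM in the KO and 37.6 FPKM in the Flox/Flox cells. Most came from Krt18, at 659 FPKM in the KO and 26.7 FPKM in the Flox/Flox cells, and Krt8, at 188 FPKM and 6.8 FPKM. Hand1, Gata3 and Gata2 reached 1 FPKM only in the KO library, so the filter set their direction. Eomes was lower, at 1.79 FPKM in the KO and 2.65 FPKM in the Flox/Flox cells, and Cdx2 and Elf5 were below 1 FPKM in both. Fibroblast and feeder markers were low, with 2 of 10 measured, sums of 8.54 FPKM in the KO and 3.22 FPKM in the Flox/Flox cells, and Lum at 0 in both. The 2 measured were higher in the KO. Thy1 stood at 4.9 FPKM in the KO and 1.55 FPKM in the Flox/Flox cells (1.21). Twist1 stood at 1.54 FPKM and 1.18 FPKM (0.22, or -0.12 with the GC trend subtracted). Extraembryonic endoderm markers summed to 3.22 FPKM in the KO and 0.917 FPKM in the Flox/Flox cells, with 1 of 6 measured. In bulk RNA, fewer cycling or pluripotent cells and less of a transcript in each cell cannot be told apart, and the part of these markers in the lower replication genes was not tested.

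The wider replication pathway was also mostly lower in the KO ESC. Of 70 other genes of replication, its chromatin assembly, its nucleotide supply and its E2F regulators, 69 were measured. Of these, 68 were lower and 36 at least 1.5-fold lower, with a median of -0.63 (-0.40 with the GC trend subtracted). Over all measured genes 51.7% were lower and 15.9% at least 1.5-fold lower. Among genes that averaged 5 FPKM these shares were 62.8% and 21.7%. The genes past 2-fold were led by Nasp, a histone chaperone, at 183 FPKM in the KO and 489 FPKM in the Flox/Flox cells (-1.41). Supt16h, a subunit of the chaperone FACT, stood at 60.5 FPKM in the KO and 126 FPKM in the Flox/Flox cells (-1.05), and Top2a, the topoisomerase that untangles finished chromosomes, at 144 FPKM and 294 FPKM (-1.03). Dscc1, of an alternative clamp loader, stood at 4.24 FPKM in the KO and 10.6 FPKM in the Flox/Flox cells (-1.15). Mtbp, a firing factor, stood at 9.68 FPKM and 20.7 FPKM (-1.02). With the GC trend subtracted, Nasp stood at -1.03, Dscc1 at -0.84, Mtbp at -0.68 and Top2a at -0.59, while Supt16h had no such value. Pold4, an accessory subunit of the polymerase whose catalytic subunit is Pold1, was the exception in direction before the GC trend was subtracted. It stood at 7.91 FPKM in the KO and 3.96 FPKM in the Flox/Flox cells (0.84). With that trend subtracted Pold4 stood at 0.62, and others were above 0 too, among them Rrm2b (0.27), Dnajc9 (0.26) and Donson (0.17). Copies and overlapping genes were not checked for these 69 genes.

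**Figure D3:**
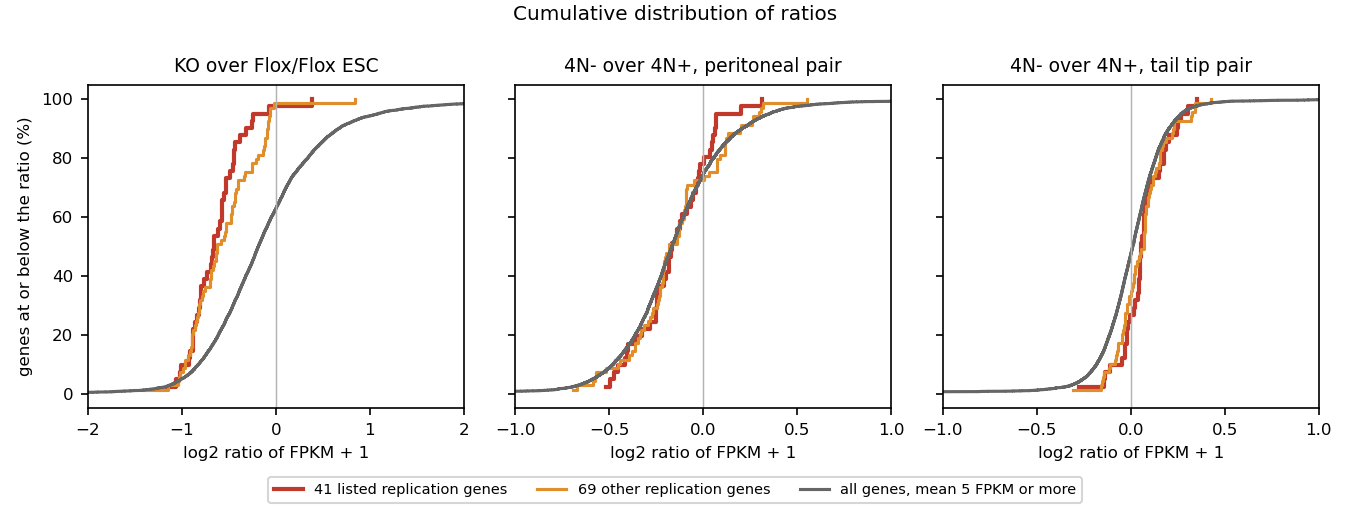
Share of genes (percent, vertical axis) at or below each log2 ratio of FPKM + 1 (horizontal axis) for the 41 genes (red), 69 other replication genes (orange) and all genes that averaged 5 FPKM (grey), in the ESC and in each iPSC pair. The red and orange curves lie left of the grey one in the ESC and run along it in the iPSC from peritoneal fibroblasts, where the median of the 41 genes was -0.17.

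Across all libraries, the KO ESC had the lowest level of the 6 libraries for 34 of the 41 genes, against 28.9% of the 12575 genes measured in any library. Those 34 were below all 4 iPSC lines. The levels were not centred, and FPKM over all genes also summed lowest in the KO ESC, at 263928. That sum was 340024 in the Flox/Flox ESC and 306285 to 356260 in the iPSC lines. The share of 28.9% covers all genes at 1 FPKM, and none was computed for well-expressed genes alone. The Flox/Flox ESC was above all 4 iPSC lines for 18 of the 41 genes, within their range for 15 and below them for 8, against 27.0% above and 28.1% below over the same 12575 genes. Median levels of the 41 genes were 31.8 FPKM in the KO and 53.2 FPKM in the Flox/Flox cells. In the iPSC from peritoneal fibroblasts they were 48.1 FPKM in 4N- and 57.3 FPKM in 4N+ cells, and from tail tip fibroblasts 47.1 FPKM in 4N- and 42.2 FPKM in 4N+ cells. The 3 tables may have been scaled separately, and strain differs between the ESC and the iPSC, so these levels are a description.

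The other 7 genes had their lowest level elsewhere. Pold1 was lowest in the Flox/Flox ESC, and Mcm8, Cdc7 and Pole were lowest in the 4N- line from tail tip fibroblasts. Orc6 and Pola2 were lowest in the 4N+ line from tail tip fibroblasts, and Ccne2 in the 4N+ line from peritoneal fibroblasts. The widest range belonged to Gins2, whose highest value exceeded its lowest 3.52-fold, and the narrowest to Orc4, at 1.39-fold.

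**Figure D4:**
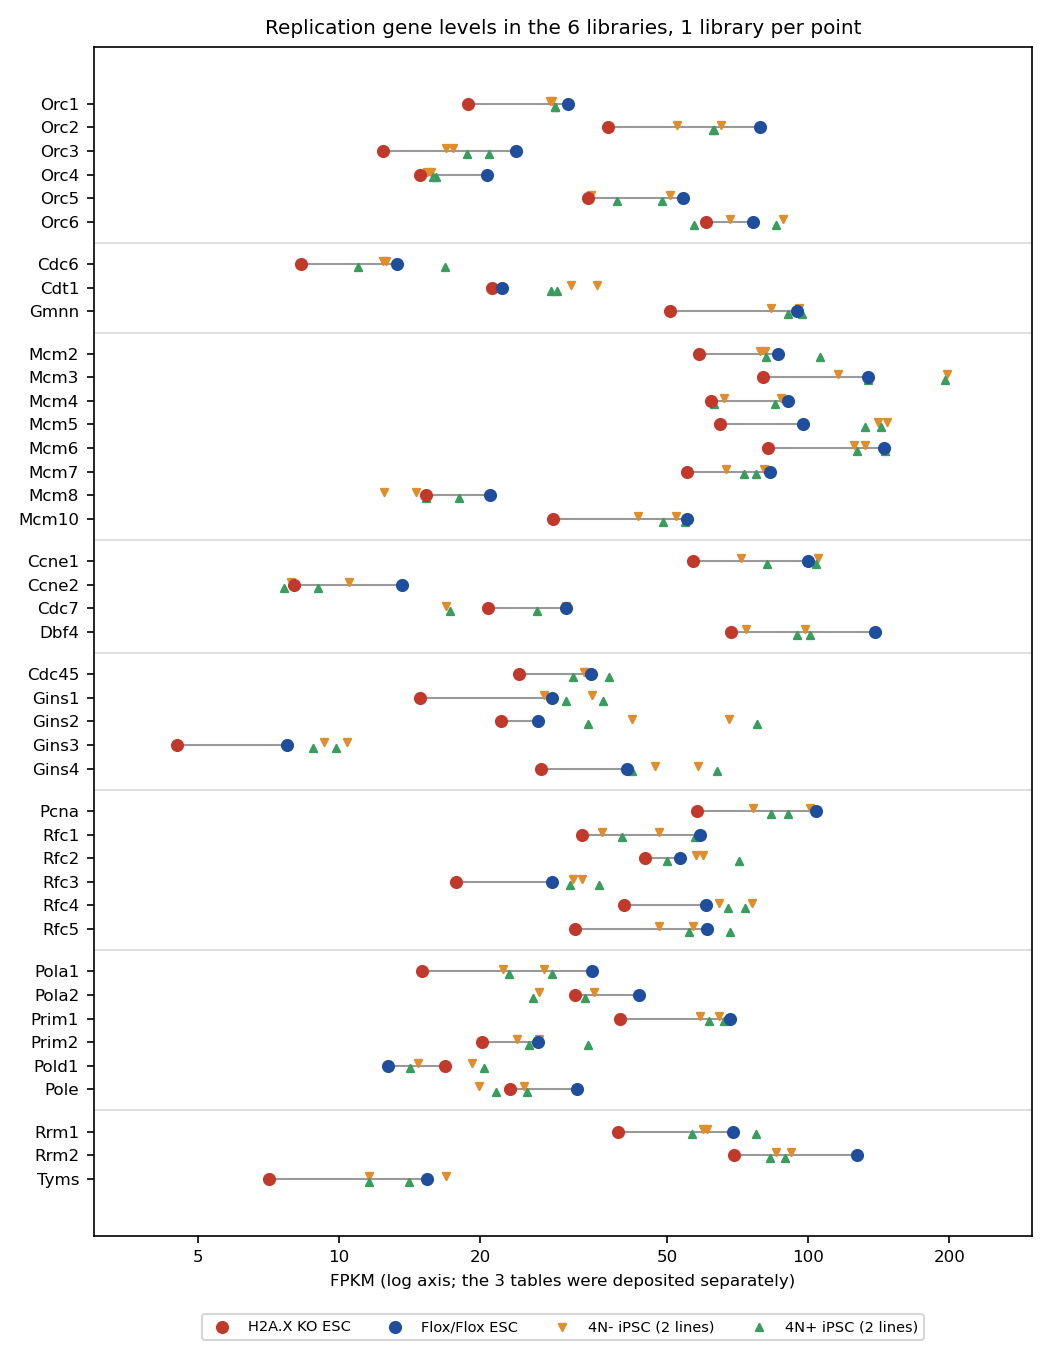
FPKM (log axis) of the 41 genes, 1 row per gene in the order of their roles, in the KO ESC (red), Flox/Flox ESC (blue), 4N- iPSC (orange) and 4N+ iPSC (green), 1 point per library. Red points are the leftmost for 34 of the 41 genes.

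Between 4N- and 4N+ iPSC the listed genes differed little. In the pair from peritoneal fibroblasts, 32 of the 41 were lower and 9 higher in the 4N- line, none by 1.5-fold, and the median log2 ratio was -0.17, with a range of -0.52 to 0.31. Over the 11606 genes measured there, 68.1% were lower, 4.85% at least 1.5-fold lower and 1.98% at least 1.5-fold higher, and the median over genes with both libraries at 5 FPKM or above was also -0.17. Relative to that shift 21 of the 41 genes were below 0, with a median of -0.00. In the pair from tail tip fibroblasts, 11 were lower and 30 higher in the 4N- line, again none by 1.5-fold, with a median of 0.06 and a range of -0.28 to 0.35. Of the 11354 genes measured in that pair, 49.9% were lower, 0.907% at least 1.5-fold lower and 0.828% at least 1.5-fold higher. Over 6485 genes there averaging 5 FPKM, the log2 ratio had Spearman correlations of 0.302 with transcript GC content and -0.401 with transcript length. The median of the 41 genes was 0.07 with the GC trend removed and 0.04 with GC and length trends removed.

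In the peritoneal pair the largest ratios belonged to Ccne1, at 71.9 FPKM in 4N- and 104 FPKM in 4N+ cells (-0.52), Rfc5, at 48.1 FPKM and 68.3 FPKM (-0.50), and Prim2, at 24.0 FPKM and 33.9 FPKM (-0.48). In the tail tip pair Ccne1 again had the largest, but on the other side, at 105 FPKM in 4N- and 81.7 FPKM in 4N+ cells (0.35). Gins2 followed at 42.2 FPKM in 4N- and 34.0 FPKM in 4N+ cells (0.30), and Mcm8 at 12.5 FPKM and 15.3 FPKM (-0.28). Mcm8 was lower by as much in the peritoneal pair, at 14.6 FPKM in 4N- and 18.0 FPKM in 4N+ cells, and no other gene had a ratio of this size in the same direction in both pairs. In direction alone, 10 genes had less in 4N- cells of both pairs, 8 were higher in both, 22 were lower in the peritoneal and higher in the tail tip pair, and Cdc7 had the opposite split. Over the 10975 genes measured in both pairs these shares were 33.5%, 13.8%, 35.8% and 16.6%. The tally rests on the shift of the peritoneal pair: after centring each pair the counts were 4, 13, 17 and 7, against 22.1%, 23.7%, 23.0% and 31.2% of all genes. Orc1, Orc4, Gmnn, Mcm6, Pola1 and Pole then joined Cdc7.

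The role groups moved little and not alike in the 2 pairs. In the peritoneal pair their medians ran from -0.24 for the clamp and its loader to 0.01 for nucleotide synthesis. In the tail tip pair they ran from 0.01 for the origin recognition complex to 0.15 for CDC45 and GINS. The other replication genes had medians of -0.18 (50 of 69 lower) in the peritoneal pair and 0.07 (23 of 69 lower) in the tail tip pair. Of all genes measured, 68.1% were lower in the peritoneal pair and 49.9% in the tail tip pair.

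All 4 iPSC libraries were fitted together with limma, with the parental cell type as a block. Of 11985 genes, 14 (0.117%) had a Benjamini-Hochberg adjusted p below 0.05, 5 higher and 9 lower in the 4N- lines, and 446 (3.72%) had an unadjusted p below 0.05. None of the 41 genes passed either threshold, the lowest limma adjusted p among them being 0.999. For Mcm8 limma gave a mean log2 ratio of -0.28 with a standard error of 0.16 and an unadjusted p of 0.116, lower in 2 of 2 pairs. For Ccne1 limma gave -0.08 with a standard error of 0.25 and an unadjusted p of 0.747. The fit has 1 residual degree of freedom for each gene, and p-values measure only the spread between these lines. A p that misses the threshold does not show that the lines had equal levels. In the authors' deposited tables no listed gene was called significant in either pair, and Ccne1 had the lowest p-value in both, 0.0644 in the peritoneal and 0.0175 in the tail tip pair.

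Pluripotency markers were close within each pair, with sums of 855 FPKM in 4N- and 876 FPKM in 4N+ cells from peritoneal fibroblasts, and of 1060 FPKM in both lines from tail tip fibroblasts. Fibroblast and feeder markers summed to 7.76 FPKM in 4N- and 20.7 FPKM in 4N+ cells from peritoneal fibroblasts. All 6 that were measured there were lower in the 4N- line, against 68.1% of all genes measured in this pair. The 3 at least 2-fold lower, Col1a1, Col1a2 and Postn, reached 1 FPKM only in the 4N+ line, so the filter set their direction. Sums of the fibroblast and feeder markers were close in the tail tip pair, at 5.68 FPKM in 4N- and 5.53 FPKM in 4N+ cells. Trophoblast markers summed to 56.8 FPKM in 4N- and 41.7 FPKM in 4N+ cells of the tail tip pair, with a median log2 ratio of 0.39 over the 4 measured, and to 24.1 FPKM in 4N- and 22.0 FPKM in 4N+ cells of the peritoneal pair. Krt18 and Krt8 made up most of each sum. Extraembryonic endoderm markers, 1 of 6 measured, summed to 3.92 FPKM in 4N- and 2.69 FPKM in 4N+ cells of the tail tip pair, and to 1.87 FPKM and 1.44 FPKM in the peritoneal pair. The part of these markers in the ratios of either pair was not tested.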

How the data were processed

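Messenger RNA was measured in 6 mouse cultures, 1 TruSeq library each. Per the submitters' processing notes, CASAVA and TopHat2 were used, with mm9 as the genome build. The sources used here do not give versions, the quantifying program, its annotation or strand use. Each of the 3 deposited tables holds FPKM for 2 libraries and, per the file headers, the p-value and q-value of the authors with their calls. The deposited log2 fold change and test statistic, in other units (log2 and score), were not used by any result. Ratios were recomputed within a table as log2(FPKM + 1), a scale that understates changes of low genes. A gene was measured when it reached 1 FPKM in a library of the table. The 41 genes, their roles and the other lists were chosen with earlier results of these data known.

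The ESC pair and each iPSC pair have 1 library on each side and no test, so genes were counted at 1.5-fold and 2-fold. For the iPSC, limma 3.58.1 under R 4.3.3 was fitted to all 4 libraries (trend, parental cells as a block, Benjamini-Hochberg adjustment over all genes, threshold 0.05), after a check on simulated data. Named were all listed genes 1.5-fold different in the ESC, the 3 largest ratios in each iPSC pair where none passed the folds set for them, the extremes of each role by FPKM, and other replication genes past 2-fold. The remaining listed genes and Cdt1, Pold1 and Pold4 were given to account for every listed gene or exception.

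Effective depth came from receptor genes without introns, whose FPKM values became whole fragment numbers within 0.05, but for 1 of 19 values not used to fit the depth in the 4N- line from peritoneal fibroblasts. Intervals cover counting error only. Overlapping exons, transcript GC content and length were taken from GENCODE vM21, and copies were found with minimap2 2.31-r1302. Trends with GC content and length were lowess fits (span 0.3, statsmodels 0.14.6) over genes averaging 5 FPKM. Promoter motifs were searched on both strands of RefSeq sequences (GRCm38.p6), whose coordinates are not those of mm9. Alternatives were a pseudocount of 0.1 FPKM, no filter, a mean of 5 FPKM, centring on genes with both libraries at 5 FPKM or above, no block, and leaving out each iPSC library.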

Additional observations from a re-analysis of the deposited data

Results flagged for a closer look

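Ccne1, which encodes cyclin E1, had opposite ratios in the 2 iPSC pairs. Its log2 ratio of 4N- over 4N+ was -0.52 in the pair from peritoneal fibroblasts, at 71.9 FPKM in 4N- and 104 FPKM in 4N+ cells, and 0.35 in the pair from tail tip fibroblasts, at 105 FPKM in 4N- and 81.7 FPKM in 4N+ cells. It drew attention because it had the largest ratio of the 41 genes in each pair and the directions differ. The difference between the pairs was not tested, since each holds 1 library of each label.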

How the results depend on the processing

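For KO over Flox/Flox ESC, the median log2 ratio of the 41 genes was -0.66 as reported, -0.45 after centring, -0.40 with the GC trend removed and -0.39 with GC and length trends removed; the last 2 were chosen after seeing the data. The 24 genes at least 1.5-fold lower became 15, 11 and 10 under these settings, and 4 at 2-fold, while the 1927 genes of the whole table became 978, 691, 673 and 449. Only 10514 of the 12086 measured genes had a GC value, of which 1638 were at least 1.5-fold lower before the trend was removed. The median of the peritoneal pair moved from -0.17 to -0.00 after centring and to 0.02 with the GC trend removed, alone or with the length trend. Centring reversed the sign of Cdt1 in the ESC (0.13) and of 11 genes in the peritoneal pair. The 14 genes that limma called between 4N- and 4N+ iPSC became 0 with no filter, where 1015 had an unadjusted p below 0.05, and 3 with no replicate block. Leaving out each library gave 1 to 17, with 1 without the 4N- line from peritoneal fibroblasts and 3 without the 4N+ line from tail tip fibroblasts; the lone line left is assumed to vary like the others. Fits without the block or without a library compare levels across tables, and the cause of the changes was not tested. As a check of the pairing, lines of 1 parental cell type deviated from the means of their labels with a correlation of 0.38 over 7554 genes, but the labels do not say that lines of a pair came from 1 animal. The number of listed genes called stayed at 0 in each of these fits. A pseudocount of 0.1 FPKM kept every direction. Depth limits the log2 ratios of the 41 genes to half-widths of at most 0.19, and the spread between cultures could not be measured in the ESC.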
